A study of Mus musculus with 15 samples.

Results

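The Wnt pathway and crypt stem cell genes were followed in the distal colon of mice before and after a colitis-associated cancer regimen. They were chosen by symbol: every Wnt, Fzd, Dkk, Sfrp, Rspo, Lgr or Dvl gene with a number, plus a set of named pathway, feedback and stem cell genes. The deposited counts listed 44 of them among 12897 genes. In the 3 count tables, 41, 43 and 43 of these members were listed, and 41 were in all 3. Lef1, Notum, Wif1, Sp5 and Olfm4 were named by the rule and were not analysed here. Ascl2 was listed only in the table of B6 mice, Tcf7 only in that of the Irf1-/- mutants, and Dkk2 in both of these.

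The 15 colons came from 5 groups of 3 mice, all of C57BL/6 background. Treated wild-type (B6) and Irf1-/- mice received 1 injection of azoxymethane (AOM, a carcinogen, 7 mg/kg) at D1 and drank 2% dextran sodium sulfate (DSS, which injures the lining of the colon) between D8 and D11, and were sacrificed at D26, before tumors emerge. The others were untreated: 3 Irf1-/- mutants and 6 B6 mice in 2 control sets, of which set 1 was tabulated with treated B6 mice and set 2 with untreated mutants. Mice of the study's cancer model were 8 to 10 weeks old, and the Irf1-/- mutants lack the transcription factor in every cell, hematopoietic cells included. Levels are TMM-scaled CPM, read counts relative to library size, and a member was called at an adjusted p under 0.05 in edgeR's quasi-likelihood test over all genes. Undissociated tissue of the distal colon was sequenced, so fewer cells of a type and less RNA per cell cannot be told apart, and p-values measure the spread between mice.

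Wnt ligands bind Frizzled receptors and the co-receptors Lrp5 and Lrp6, which frees β-catenin from a destruction complex of Apc, Axin and Gsk3b and lets it act with TCF/LEF proteins on target genes. In the colon this signal is high at the crypt base, where it maintains Lgr5+ stem cells, and R-spondins made by stromal cells strengthen it by keeping the ligases Rnf43 and Znrf3 from removing Frizzled receptors. Loss of Apc is a common early step of colorectal tumors.

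Library totals lay between 22266607 and 22869853 counts. Irf1 itself stood at 79.4 to 123 CPM in the 6 mutant libraries and 128 to 227 CPM in the 9 B6 libraries, with no overlap. Epithelial, fibroblast and smooth muscle markers were all detected. Markers of stratified squamous epithelium, the lining of the anal canal, were present in every library for 11 of 11 genes, with a summed level of 314 to 737 CPM in untreated and 701 to 1689.8 CPM in treated colons. Summed leukocyte markers (7 of 10 listed in every library, Cd3e, S100a8 and S100a9 not) lay at 252 to 431 CPM in untreated and 391 to 555 CPM in treated colons.

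Per kilobase of its longest transcript, Ctnnb1, which encodes β-catenin, was the highest member at 243 ± 10.9 CPM per kilobase (SD, n = 15), followed by the R-spondin receptor Lgr4 at 77.1 ± 8.19 and the co-receptor Lrp6 at 35.1 ± 2.81. These 3 did not overlap with each other or with any other member. The lowest were the antagonists Sfrp4 (1.44 ± 0.394) and Dkk2 (1.34 ± 0.275, n = 12) and the receptor Fzd3 (0.836 ± 0.146), whose ranges overlapped. On the same per-kilobase scale the stem cell gene Lgr5 stood at 6.90 ± 1.14 and the stem cell transcription factor Ascl2 at 3.30 ± 0.923 (n = 6). Role medians ran from 4.57 for secreted antagonists and 4.63 for Wnt ligands to 15.2 for the cytoplasmic relay.

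**Figure D1:**
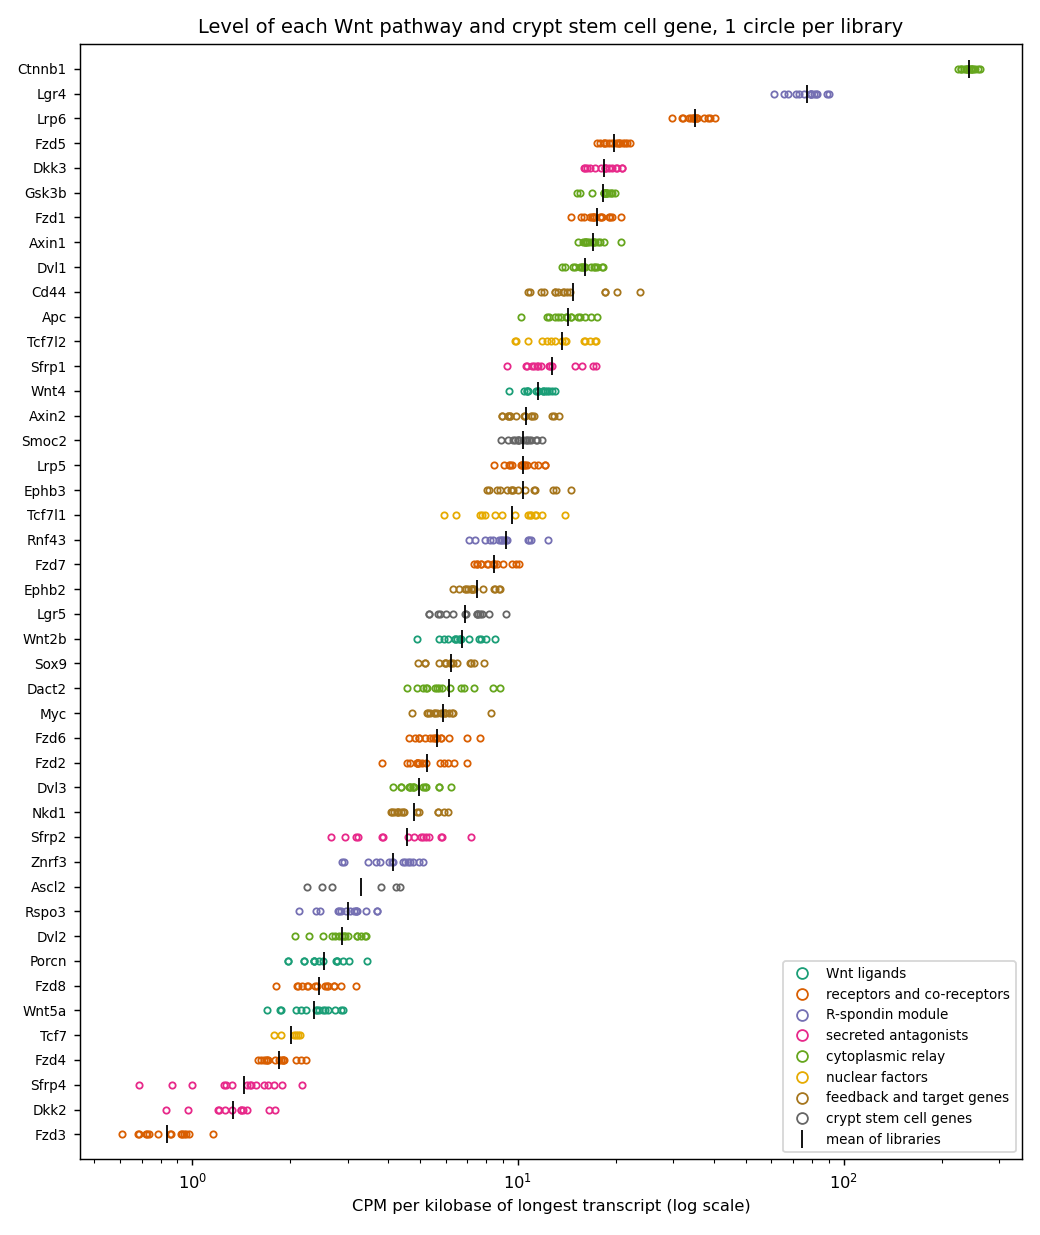
Level of each of the 44 members in CPM per kilobase of longest transcript (log axis), 1 circle per library and a bar at the mean of the libraries that list the gene. Ctnnb1, Lgr4 and Lrp6 stood above all others, and the remaining members formed a continuous range down to Fzd3.

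The first comparison asked what AOM/DSS changed in each genotype. In the mean response of both genotypes, Lgr5, Lgr4, the repressor Tcf7l1, the kinase Gsk3b, the co-receptor Lrp6 and the ligand Wnt5a fell, while the target gene Cd44, the antagonist Sfrp1 and the co-receptor Lrp5 rose. Gsk3b, Lrp6 and Wnt5a were near 0 in mutants alone (log2 FC -0.02, -0.05 and 0.09), and the others had the same sign in both genotypes. All 9 changes were under 1.5-fold. These were 9 of 42 members tested, 3 higher and 6 lower, against 17.9% of all 12483 genes (8.59% higher and 9.36% lower). The median log2 FC of the 42 members was 0.06 and that of all genes 0.00.

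Taken by genotype, 5 of 43 members were called in B6 mice (control set 1 as reference), 2 higher and 3 lower, where 8.46% of all genes were called (3.95% higher and 4.52% lower). In Irf1-/- mutants 3 of 43 were called, namely Cd44, Sfrp1 and Lgr5, where 2.37% of all genes were called. The members' median log2 FC was -0.04 in B6 mice and 0.09 in mutants, beside 0.01 for all genes in each. No member was called in both genotypes. The share of all genes called in both is not given, so no lack of overlap particular to the members is read from this. The same sign in both was found for 29 of 42 members (69.0%), beside 62.6% of all genes. These 2 responses share no library.

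**Figure D2:**
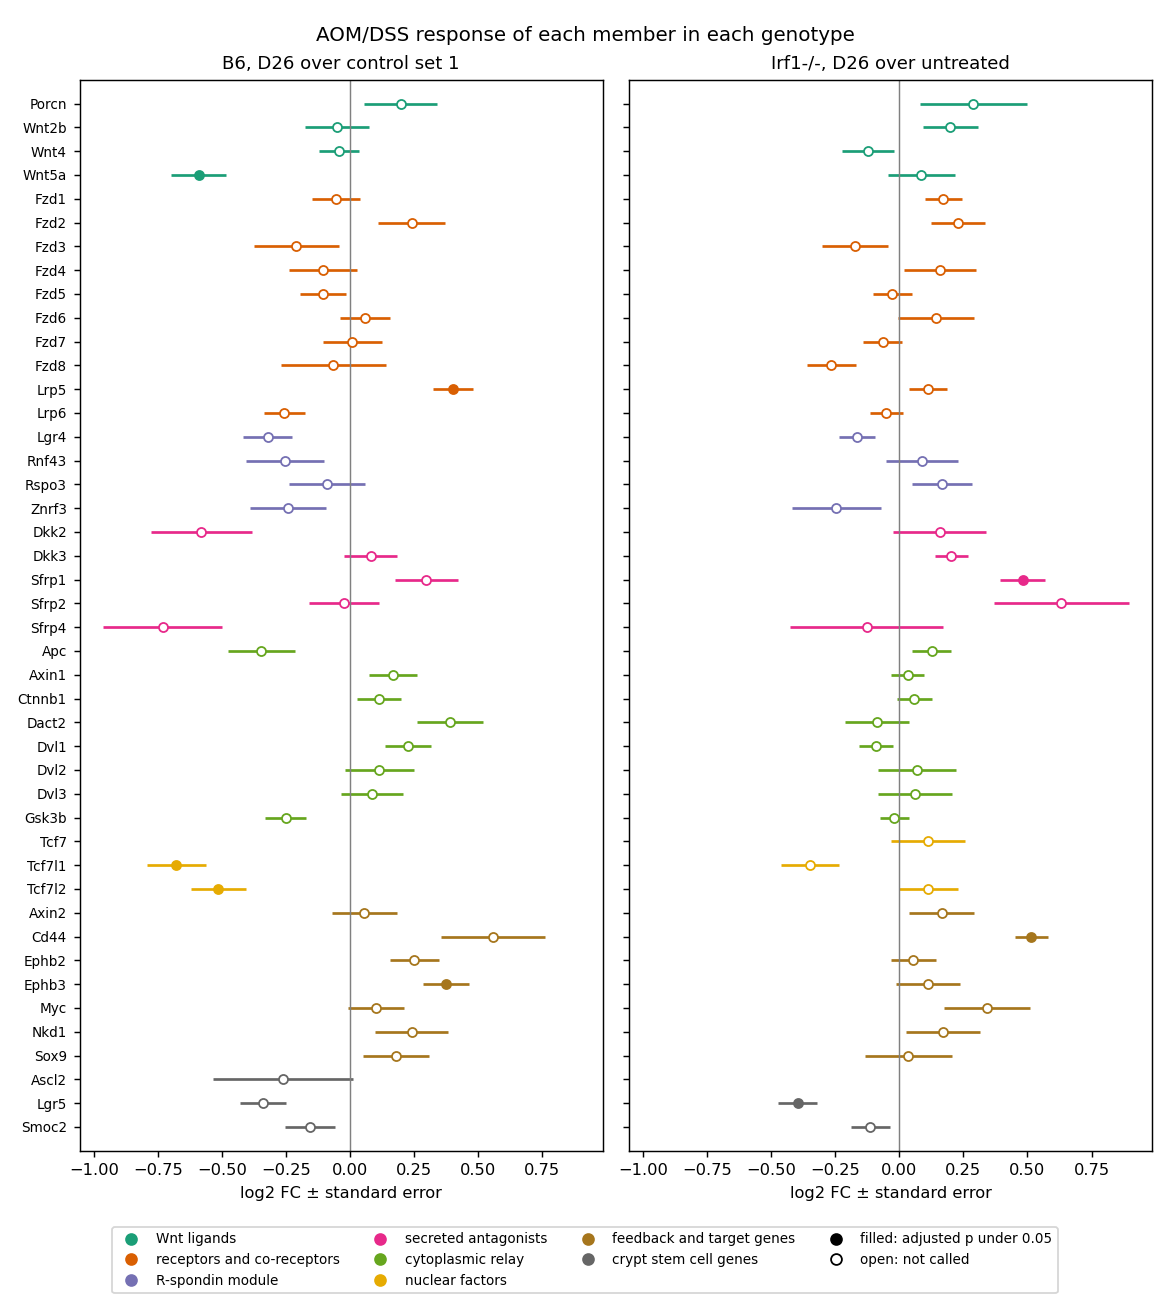
Log2 FC of D26 over untreated mice, with its standard error, for each member by role, in B6 mice (left, control set 1) and Irf1-/- mutants (right). Filled circles were called at an adjusted p under 0.05: 5 members in B6 mice and 3 in mutants. All 7 feedback and target genes lay to the right of 0 in both genotypes, but in B6 mice 5 of 7 did after correction for GC content.

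Among the crypt stem cell genes, Lgr5, the R-spondin receptor that marks cycling stem cells, fell over both genotypes. It measured 33.2, 32.9 and 35.9 CPM in B6 control set 1, 44.2, 36.7 and 36.3 CPM in set 2 and 28.9, 25.7 and 25.6 CPM in treated B6 mice. Untreated mutants had 37.2, 35.9 and 39.0 CPM and treated mutants 27.2, 30.2 and 27.6 CPM. Every treated mouse was below every untreated one, in either genotype. The mean response was -0.38 ± 0.06 on the log2 scale (SE), 1.30-fold lower, with an adjusted p of 0.00201 in edgeR's quasi-likelihood test. It was called in all 12 fits that left out 1 library and under all 9 alternatives run, over which its log2 FC lay between -0.47 and -0.30. Within a single genotype it rested on less: -0.40 ± 0.08 (adjusted p = 0.0392, edgeR) in mutants, a call lost without any 1 of the 6 libraries (adjusted p between 0.0533 and 0.159), and -0.34 ± 0.09 (adjusted p = 0.0513) in B6 mice.

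Smoc2, a matrix protein gene of the stem cell signature, did not pass in either response, with a log2 FC of -0.16 ± 0.10 in B6 mice and -0.11 ± 0.08 in mutants. Ascl2, which sets stem cell fate, could be tested only in B6 mice. It had 4.31, 6.96 and 6.08 CPM in set 1 and 6.76, 3.61 and 4.02 CPM after treatment, and the groups overlapped (log2 FC -0.26 ± 0.27, adjusted p = 0.552, edgeR).

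In the R-spondin module, Lgr4, the widely expressed R-spondin receptor of crypt cells, followed Lgr5. Its levels were 399, 458 and 402 CPM in set 1, 416, 402 and 449.7 CPM in set 2 and 362, 309 and 332 CPM in treated B6 mice. In mutants they were 419, 402 and 410.0 CPM before and 369, 343 and 383 CPM after treatment. Treated and untreated mice did not overlap in either genotype. The mean response was -0.25 ± 0.06 (adjusted p = 0.0123, edgeR), called in all 12 fits without 1 library, and -0.20 (adjusted p = 0.0513) once counts were corrected for GC content. The secreted agonist Rspo3 and the ligases Rnf43 and Znrf3 were not called in either genotype. In B6 mice the log2 FC of all 4 genes of the module was negative, from -0.32 for Lgr4 to -0.09 for Rspo3. In mutants Znrf3 (-0.25) and Lgr4 (-0.17) were negative, and Rspo3 (0.17) and Rnf43 (0.09) positive.

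Of the nuclear factors, Tcf7l1, which mostly represses Wnt targets when β-catenin is absent, showed the largest fold change of the called members in the B6 and in the mean response, apart from Cd44 in the latter. It had 33.2, 32.8 and 33.4 CPM in set 1, 34.3, 34.5 and 42.5 CPM in set 2 and 24.1, 18.1 and 19.6 CPM in treated B6 mice. The mutants had 27.1, 29.8 and 36.0 CPM before and 23.6, 23.2 and 26.0 CPM after treatment. No treated mouse reached any untreated one of its genotype. The log2 FC was -0.68 ± 0.12 in B6 mice (1.60-fold lower, adjusted p = 0.0198, edgeR), -0.35 ± 0.11 in mutants (adjusted p = 0.143) and -0.52 ± 0.08 over both (adjusted p = 0.00262). The mean response was called in all 12 fits without 1 library and under all 9 alternatives.

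Tcf7l2, the main partner of β-catenin in colonic epithelium, fell in B6 mice against control set 1 and depended on that set. It measured 59.3, 62.0 and 64.5 CPM in set 1, 59.5, 36.3 and 39.9 CPM in set 2 and 44.2, 36.7 and 48.5 CPM after treatment. Treated B6 mice lay below all of set 1 and within the range of set 2. The log2 FC was -0.51 ± 0.11 (adjusted p = 0.0286, edgeR) against set 1 and -0.06 (adjusted p = 0.856) against set 2. Mutants went from 52.0, 45.6 and 52.1 to 47.0, 50.7 and 63.9 CPM and overlapped. Tcf7, tested only in mutants, had a log2 FC of 0.11 ± 0.14.

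The promoters of Tcf7l1, Lgr4, Gsk3b and Cd44 are shown because these are the 4 of the 9 members called in the mean response that RefSeq's promoter table holds. Each line gives the 250 bases before the start of transcription, 5′ to 3′ on the gene's strand, on GRCm38.p6 (the counts were made on mm9). Capitals mark the GC box GGGCGG and the TCF/LEF core CTTTGA, searched on both strands.
Tcf7l1, chr6:72789046-72789295, minus strand: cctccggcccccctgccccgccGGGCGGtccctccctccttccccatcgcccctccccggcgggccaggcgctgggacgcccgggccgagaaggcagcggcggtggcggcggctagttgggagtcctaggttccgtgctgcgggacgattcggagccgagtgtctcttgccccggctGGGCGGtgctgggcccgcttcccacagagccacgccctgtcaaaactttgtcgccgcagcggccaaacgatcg
Lgr4, chr2:109917397-109917646, plus strand: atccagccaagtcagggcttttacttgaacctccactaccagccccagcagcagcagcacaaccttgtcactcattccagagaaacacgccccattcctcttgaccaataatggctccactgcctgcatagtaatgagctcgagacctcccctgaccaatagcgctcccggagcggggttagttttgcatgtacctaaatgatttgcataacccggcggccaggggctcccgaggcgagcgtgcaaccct
Gsk3b, chr16:38088751-38089000, plus strand: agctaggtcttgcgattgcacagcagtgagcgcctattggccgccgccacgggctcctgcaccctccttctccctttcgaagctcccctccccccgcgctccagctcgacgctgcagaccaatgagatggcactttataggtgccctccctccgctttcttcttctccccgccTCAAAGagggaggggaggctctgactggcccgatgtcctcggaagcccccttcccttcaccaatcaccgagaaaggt
Cd44, chr2:102901666-102901915, minus strand: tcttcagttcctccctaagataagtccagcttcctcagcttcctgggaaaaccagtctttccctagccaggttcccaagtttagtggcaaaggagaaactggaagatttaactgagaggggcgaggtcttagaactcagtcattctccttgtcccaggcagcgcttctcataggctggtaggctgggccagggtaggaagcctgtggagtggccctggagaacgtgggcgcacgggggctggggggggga
Tcf7l1 held 2 GC boxes and Gsk3b 1 TCF/LEF core, read on the opposite strand, while Lgr4 and Cd44 held neither in this window. Over the 29 promoters of 25 members in the table, 19 (65.5%) held a GC box and 2 (6.9%, those of Fzd1 and Gsk3b) the TCF/LEF core, beside 32.7% and 13.8% of all 32851 promoters of the same length. These letter matches are a description and say nothing of binding.

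Among the feedback and target genes, all 7 had a positive log2 FC in both genotypes, with medians of 0.24 in B6 mice and 0.16 in mutants, and 1 was called in each, while 51.8% of all genes were positive in either genotype. After correction for GC content 5 of 7 were positive in B6 mice, with a median of 0.14 and with Axin2 (-0.077) and Myc (-0.0046) below 0, and 7 of 7 in mutants. Cd44, an adhesion receptor of crypt base cells that leukocytes also carry, rose over both genotypes. It had 66.0, 60.1 and 67.7 CPM in set 1, 61.0, 81.3 and 79.3 CPM in set 2 and 73.2, 133 and 77.4 CPM in treated B6 mice. Mutants had 77.6, 72.8 and 74.6 CPM before and 113, 104 and 104 CPM after treatment. All treated mutants were above all untreated mice of both genotypes, whereas 2 of the 3 treated B6 mice lay within the range of set 2. The log2 FC was 0.51 ± 0.06 in mutants (1.43-fold, adjusted p = 0.00901, edgeR), and it was not called without any 1 untreated mutant (adjusted p up to 0.0762). In B6 mice it was 0.56 ± 0.20 (adjusted p = 0.112), and 0.23 without treated B6 replicate 2. The mean response of 0.53 ± 0.12 (adjusted p = 0.0115) was called in all 12 fits without 1 library, and was 0.36 without that same replicate. Of 7 leukocyte markers 5 rose in mutants and 0 were called in B6 mice by edgeR's quasi-likelihood test, beside 2.37% and 8.46% of all genes. In B6 mice 2 had an unadjusted p under 0.05, and DESeq2 and edgeR's exact test each called 1. The part of these markers in the Cd44 result was not tested.

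Ephb3, a receptor that keeps crypt base cells in place, rose in B6 mice. It measured 49.9, 53.3 and 45.7 CPM in set 1, 45.6, 47.4 and 45.3 CPM in set 2 and 69.1, 60.9 and 62.2 CPM after treatment, with treated mice above both sets. The log2 FC was 0.38 ± 0.09 (adjusted p = 0.0385, edgeR) and 0.21 (adjusted p = 0.208) after correction for GC content. In mutants it was 0.11 ± 0.12, and treated mutants had 41.0, 38.7 and 53.7 CPM. The other target genes were not called in either response. Axin2, the feedback scaffold often read as a gauge of Wnt activity, had a log2 FC of 0.06 ± 0.13 in B6 mice and 0.16 ± 0.13 in mutants. Nkd1, another feedback inhibitor, had 0.24 ± 0.14 and 0.17 ± 0.15. The proto-oncogene Myc had 0.10 ± 0.11 and 0.34 ± 0.17, the crypt transcription factor Sox9 0.18 ± 0.13 and 0.04 ± 0.17, and Ephb2, the sister receptor of Ephb3, 0.25 ± 0.10 and 0.05 ± 0.09. The cell cycle list was not called either: 0 of 12 proliferation markers passed in either genotype by edgeR's quasi-likelihood test, its exact test or DESeq2. In the quasi-likelihood test 1 had an unadjusted p under 0.05 in each genotype, and with DESeq2 3 had one in B6 mice and 2 in mutants.

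**Figure D3:**
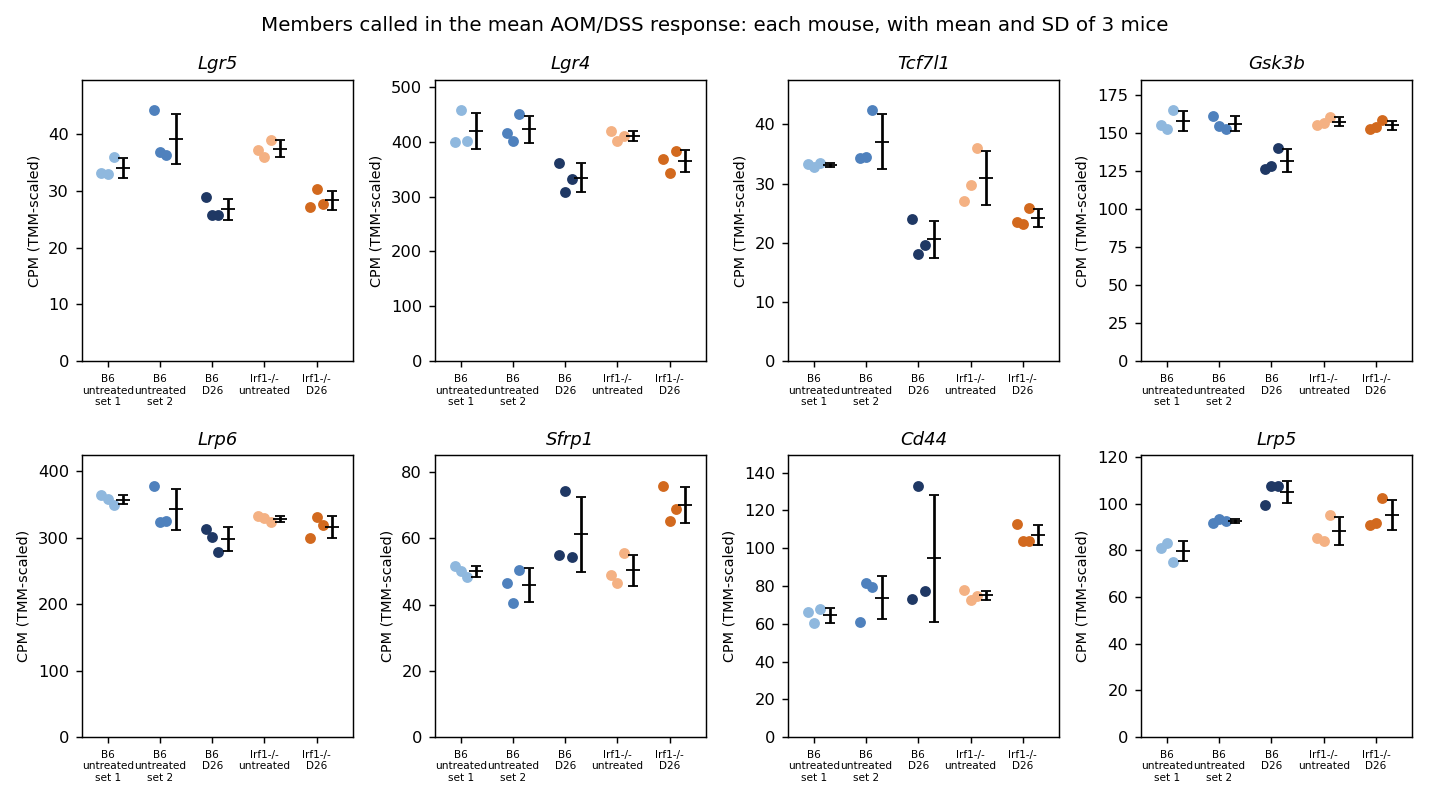
Level in CPM of 8 of the 9 members called in the mean AOM/DSS response in each of the 15 mice, with the mean and SD of the 3 mice of a group as a black bar. Lgr5, Lgr4 and Tcf7l1 sat lower in every treated mouse than in any untreated mouse of its genotype, and Cd44 of treated B6 replicate 2 stood apart at 133 CPM.

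Of the secreted antagonists, Sfrp1, a stromal gene whose product binds Wnt ligands, rose over both genotypes. It had 51.6, 50.0 and 48.4 CPM in set 1, 46.6, 40.5 and 50.5 CPM in set 2 and 55.0, 74.2 and 54.4 CPM in treated B6 mice. Mutants had 49.0, 46.4 and 55.5 CPM before and 75.9, 65.3 and 68.9 CPM after treatment. Treated mice were above untreated ones in both genotypes. The mean response was 0.38 ± 0.08 (1.30-fold, adjusted p = 0.00836, edgeR), called in all 12 fits without 1 library and under all 9 alternatives. By genotype the log2 FC was 0.48 ± 0.09 in mutants (adjusted p = 0.0322) and 0.30 ± 0.12 in B6 mice (adjusted p = 0.142). In mutants the call was lost in 4 of 6 fits, those without any 1 untreated mutant or without treated replicate 2 (adjusted p between 0.0543 and 0.151).

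The other 4 antagonists were not called. Dkk3, a distant Dickkopf relative, had a log2 FC of 0.08 ± 0.10 in B6 mice and 0.20 ± 0.06 in mutants. Dkk2, which blocks Lrp5 and Lrp6, had 5.24, 5.46 and 6.39 CPM in set 1 and 3.60, 3.07 and 4.68 CPM in treated B6 mice (log2 FC -0.58 ± 0.20, adjusted p = 0.0945, edgeR). These groups did not overlap, while those of the mutants did (log2 FC 0.16 ± 0.18). No treated B6 mouse reached 5 CPM, the filter of the deposited counts, so Dkk2 was listed for B6 mice through set 1 alone. The filter thus favoured the fall in B6 mice, and no contrast with the mutants is drawn from it. Sfrp2 had -0.02 ± 0.14 and 0.63 ± 0.26, and Sfrp4 -0.73 ± 0.23 and -0.13 ± 0.30, with standard errors among the widest of the members. In B6 mice Sfrp4 had 7.66, 8.81 and 6.34 CPM in set 1 and 3.51, 4.05 and 6.08 CPM after treatment. Its listing there thus rested largely on set 1, and the filter favoured its fall as well.

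At the cell surface the 2 co-receptors were called in opposite directions in the mean response. Their transcripts differ in GC content, at 54.7% for Lrp5 and 46.0% for Lrp6. Lrp5 had 80.9, 83.3 and 75.0 CPM in set 1, 91.8, 93.3 and 92.7 CPM in set 2 and 99.4, 108 and 108 CPM in treated B6 mice. Its log2 FC was 0.40 ± 0.08 in B6 mice (adjusted p = 0.0238, edgeR), 0.11 ± 0.08 in mutants and 0.25 ± 0.05 over both (adjusted p = 0.00884). Against control set 2 the B6 response was 0.19 (adjusted p = 0.111) and the mean response 0.14 (adjusted p = 0.0546). After correction for GC content the B6 response was 0.27 (adjusted p = 0.0941, edgeR). Lrp6 had 364, 359 and 349.9 CPM in set 1, 379, 325 and 326 CPM in set 2 and 314, 301 and 278 CPM in treated B6 mice. Mutants had 333, 330 and 324 CPM before and 299, 332 and 320 CPM after treatment, and overlapped. The log2 FC was -0.26 in B6 mice (adjusted p = 0.0755, edgeR), -0.05 in mutants and -0.16 ± 0.05 over both (adjusted p = 0.0359). The call over both was lost in 9 of 12 fits without 1 library, with adjusted p up to 0.0844. It was also lost with GC correction, a replicate block or control set 2. The 8 Frizzled receptors were not called in either genotype, and their log2 FC lay between -0.21 (Fzd3) and 0.24 (Fzd2) in B6 mice and between -0.27 (Fzd8) and 0.23 (Fzd2) in mutants.

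Among the ligands, Wnt5a, a stromal ligand of the β-catenin-independent branch that helps crypts to regenerate, fell in B6 mice. It had 18.3, 19.3 and 20.0 CPM in set 1, 17.9, 15.1 and 16.8 CPM in set 2 and 11.9, 13.1 and 13.0 CPM after treatment, below all 6 untreated B6 mice. Untreated mutants had 15.6, 17.1 and 17.0 CPM and treated mutants 17.7, 14.6 and 20.4 CPM, which overlapped. The log2 FC was -0.59 ± 0.11 in B6 mice (1.51-fold lower, adjusted p = 0.0215, edgeR) and 0.09 ± 0.13 in mutants. The B6 value was -0.37 (adjusted p = 0.0663, edgeR) against control set 2 and -0.53 (adjusted p = 0.0587) after correction for GC content. The mean response (-0.26 ± 0.08, adjusted p = 0.0444) was called in only 1 of 12 fits without 1 library, and was -0.15 (adjusted p = 0.214) with control set 2. Wnt2b, Wnt4 and Porcn, the enzyme that acylates Wnt ligands for secretion, were not called in either genotype.

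In the cytoplasmic relay, Gsk3b, which marks β-catenin for destruction, had 155, 153 and 165 CPM in set 1, 161, 154 and 152 CPM in set 2 and 126, 128 and 140.1 CPM in treated B6 mice. The mutants had 155, 156 and 161 CPM before and 152, 154 and 158 CPM after treatment. The treated B6 mice stood apart from all 12 other mice, and the mutant groups overlapped. The log2 FC was -0.25 ± 0.08 in B6 mice (adjusted p = 0.0798, edgeR) and -0.02 ± 0.06 in mutants. The mean response of -0.14 ± 0.04 (adjusted p = 0.0433, edgeR) was called in 2 of 12 fits without 1 library. With GC correction, a replicate block or both, this call was lost. Ctnnb1 differed by 0.11 ± 0.09 in B6 mice and 0.06 ± 0.07 in mutants, and Apc, the tumor suppressor of the destruction complex, by -0.35 ± 0.13 and 0.13 ± 0.07, none of them called.

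The number of calls in B6 mice moved with single libraries. Without any 1 of the 3 mice of control set 1 the calls went from 5 to 0, and without treated B6 replicate 1, 2 or 3 they were 7, 5 and 1. The log2 FC moved less over these 6 fits, lying between -0.80 and -0.59 for Tcf7l1, -0.62 and -0.54 for Wnt5a, -0.61 and -0.41 for Tcf7l2, 0.37 and 0.44 for Lrp5 and 0.32 and 0.44 for Ephb3. With control set 2 as reference Tcf7l1 (-0.83, adjusted p = 0.0114, edgeR) and Ephb3 (0.49, adjusted p = 0.0123) passed, and Wnt5a, Tcf7l2 and Lrp5 did not. In mutants the 3 calls became 0 without any 1 untreated mouse, and 2, 1 and 2 without treated replicate 1, 2 or 3. In the mean response 6 to 9 members were called without 1 library. The share of all genes called in these fits is not given, so these counts do not set the members against all genes.

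The members' B6 response also followed GC content. Across all genes, the level of a transcript against its GC content had a slope of 0.136 to 0.285 (log2 per 10% GC) in the 3 treated B6 libraries, relative to the mean of all libraries, and of -0.124 to 0.0316 in the 12 other libraries. Among members above the median GC content of 52.7%, 14 of 21 were higher in treated B6 mice by sign, with a median of 0.10, and among those at or below it 6 of 22, with a median of -0.18. In mutants these counts were 15 of 20 and 13 of 23. After a correction for GC content within each library, 1 of 43 members was called in B6 mice, Tcf7l1, at -0.87 (adjusted p = 0.0346, edgeR), and the positive counts were 9 of 21 and 8 of 22. In the mean response 5 of 42 were called after this correction. The share of all genes called after it is not given, so these counts of calls do not set the members against all genes. All 3 treated B6 libraries share the trend, so it cannot be told apart from their treatment.

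**Figure D4:**
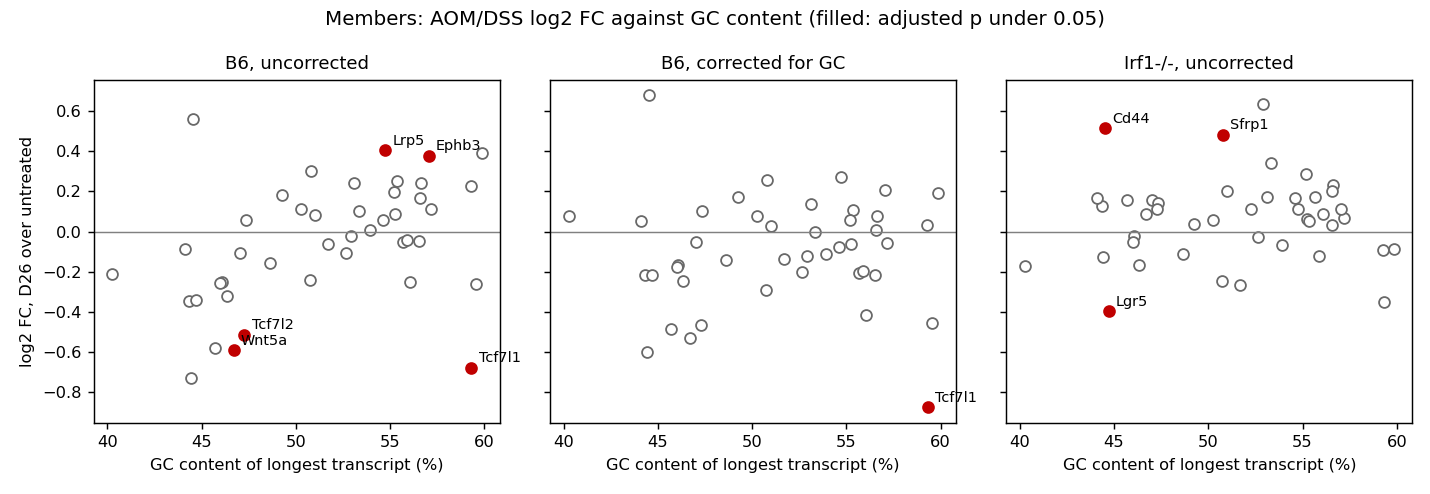
Log2 FC of D26 over untreated mice for each member against the GC content of its longest transcript in percent, in B6 mice as counted, in B6 mice after correction for GC content, and in Irf1-/- mutants as counted. Filled, named points were called. In the left panel the members rich in GC lay mostly above 0 and those poor in GC below it, with Tcf7l1 far from the others at the right.

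The next comparison asked whether the 2 genotypes responded differently. The difference between the responses (Irf1-/- minus B6) was called for 0 of 42 members by edgeR's quasi-likelihood test, where 0.0481% of all genes were called. Unadjusted p-values under 0.05 were found for 9 of 42 (21.4%) beside 16.9% of all genes, and DESeq2 called 2, Wnt5a and Tcf7l2, beside 3.22% of all genes. Wnt5a differed by 0.68 ± 0.16 (adjusted p = 0.0921, edgeR), and Tcf7l2 by 0.63 ± 0.17 (adjusted p = 0.11). Both fell in B6 mice against control set 1, and their log2 FC in mutants was 0.09 and 0.11. With control set 2 the difference was 0.47 for Wnt5a (adjusted p = 0.242, edgeR) and 0.18 for Tcf7l2 (adjusted p = 0.764). The 3 neuron and glia markers tested also had positive differences, with a median of 0.68, of which 0 passed edgeR's quasi-likelihood test, 2 had an unadjusted p under 0.05 and DESeq2 called 2, and their part was not tested. Apc (0.48 ± 0.16) and the signal transducer Dvl1 (-0.31 ± 0.11) had the next smallest p-values and did not pass. For Lgr5 the difference was -0.05 ± 0.11 and for Cd44 -0.04 ± 0.24. The 4 secreted antagonists other than Dkk2 had a positive difference, the smallest 0.13 (Dkk3), beside 51.9% of all genes. These differences use control set 1, and all 4 were lower in set 2 when the control sets were compared. Sfrp4 was listed for B6 mice largely through set 1, so the filter of 5 CPM favoured its positive difference. Dkk2 was listed there through set 1 alone and is not counted.

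Treated mutants were then set directly against treated B6 mice, in libraries that the responses above also use. Dact2, an inhibitor of Dishevelled in the Wnt relay, was lower in mutants, the only one of 42 members called, beside 2.05% of all genes. It had 28.6, 23.8 and 27.2 CPM in treated B6 mice and 14.8, 16.6 and 18.3 CPM in treated mutants. Untreated levels were 22.2, 21.8 and 17.1 CPM in set 1, 18.0, 19.0 and 18.7 CPM in set 2 and 20.0, 15.9 and 17.0 CPM in mutants. Treated B6 mice were thus above all 12 others, and the treated mutants lay within or just below the untreated range. The log2 FC between treated genotypes was -0.70 ± 0.12 (1.62-fold lower, adjusted p = 0.0302, edgeR), -0.07 ± 0.11 between untreated ones, and the difference between the responses -0.47 ± 0.18 (adjusted p = 0.219). The B6 response of Dact2 was 0.39 ± 0.13 (adjusted p = 0.0855) against set 1 and 0.53 (adjusted p = 0.0181) against set 2.

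The Dact2 call was lost in 5 of 6 fits without 1 library. Without treated B6 replicate 1 or 3 the adjusted p was 0.0849 and 0.142, and without treated mutant replicate 1, 2 or 3 it was 0.0912, 0.132 and 0.0522 (edgeR). With the GC correction the log2 FC was -0.52 (adjusted p = 0.101). Ephb3 came next at -0.55 ± 0.13 (adjusted p = 0.0635), and was called without treated mutant replicate 3. Dvl1 (-0.26 ± 0.08), Wnt5a (0.45 ± 0.14) and Apc (0.37 ± 0.12) did not pass. The stem cell genes were close together, with 0.07 ± 0.10 for Lgr5 and 0.06 ± 0.10 for Smoc2, as were Axin2 (-0.19 ± 0.15) and Myc (0.07 ± 0.17). The median over the members was 0.06, beside -0.01 over all genes.

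**Figure D5:**
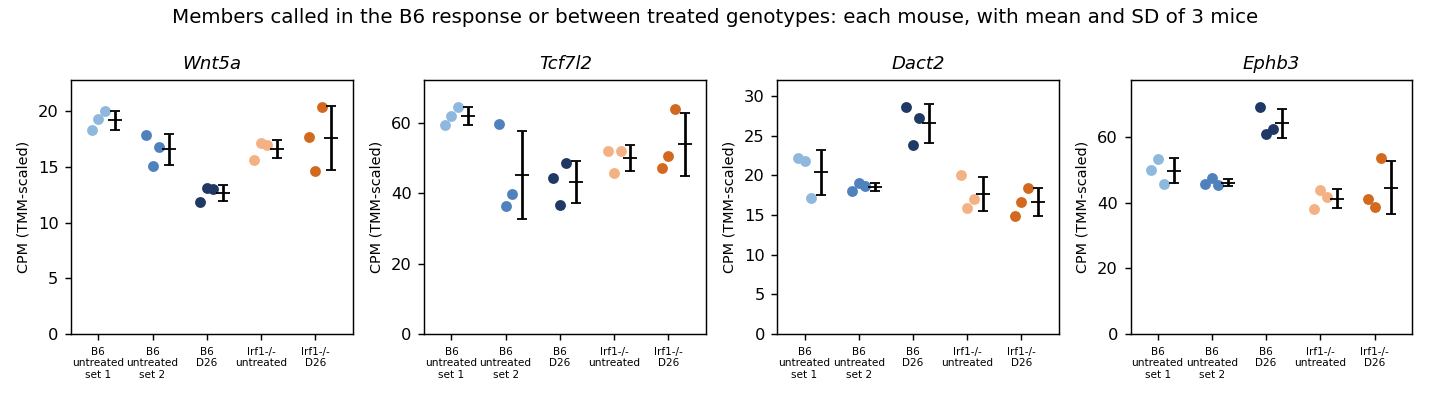
Level in CPM of Wnt5a, Tcf7l2, Dact2 and Ephb3 in each of the 15 mice, with the mean and SD of the 3 mice of a group as a black bar. Treated B6 mice stood below all others for Wnt5a and above all others for Dact2 and Ephb3, and the 2 B6 control sets differed for Tcf7l2.

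Before treatment, 0 of 41 members were called between Irf1-/- mutants and control set 2 by edgeR's quasi-likelihood test, its exact test or DESeq2, where these called 1.25%, 2.79% and 2.53% of all genes. Unadjusted p-values under 0.05 were found for 6 members (14.6%, beside 10.4% of all genes). The smallest belonged to Rspo3, at 8.84, 9.79 and 9.80 CPM in mutants and 7.40, 7.60 and 6.56 CPM in set 2 (log2 FC 0.40 ± 0.13, adjusted p = 0.246, edgeR). The groups did not overlap, but set 1 had 8.72, 9.38 and 11.4 CPM and spanned the mutants' range. The receptors Fzd7 (-0.19 ± 0.08) and Fzd6 (0.28 ± 0.12) and the feedback gene Axin2 (-0.17 ± 0.08) had the next smallest p-values and did not pass. Lgr5 differed by -0.06 ± 0.09, Cd44 by 0.02 ± 0.10 and Sfrp1 by 0.13 ± 0.10, and all 41 members lay between -0.26 (Tcf7l1) and 0.40 (Rspo3).

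The 2 B6 control sets, both untreated, measure how far such values move without treatment or mutation. In edgeR's quasi-likelihood test 0 of 41 members differed, beside 0.572% of all genes, while DESeq2 and edgeR's exact test each called 1 (beside 4.69% and 5.26% of all genes), and 7 members (17.1%) had an unadjusted p under 0.05 beside 17.2% of all genes. Sfrp2 stood at 6.46, 7.69 and 5.89 CPM in set 2 and 10.1, 11.7 and 10.6 CPM in set 1 (log2 FC -0.69 ± 0.15, adjusted p = 0.0677, edgeR). The next were Wnt2b (-0.39 ± 0.11), Rnf43 (-0.33 ± 0.11) and Lrp5 (0.22 ± 0.07). Proliferation markers had a median log2 FC (set 2 over set 1) of 0.48 over 12 genes, of which 10 had an unadjusted p under 0.05, 0 passed edgeR's quasi-likelihood test and 8 passed DESeq2. In 3 other lists every gene tested was negative. The 3 neuron and glia markers had a median of -0.59, all 3 with an unadjusted p under 0.05, the 7 leukocyte markers one of -0.33 (2 of 7) and the 6 genes of distal colon position one of -0.31 (2 of 6). Of these 3 lists 0 genes passed the quasi-likelihood test, while DESeq2 called 1 gene of distal colon position and edgeR's exact test 1 in that list and 1 of the neuron and glia markers. The part of these lists in the differences between the sets was not tested.

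Beyond the members, 72 or 73 further pathway genes were tested. Over both genotypes 15 of 72 (20.8%) were called, 13 higher and 2 lower, beside 17.9% of all genes (8.59% higher and 9.36% lower). Apcdd1, a membrane-bound Wnt inhibitor, rose by 0.82 ± 0.11 on the log2 scale (adjusted p = 0.00119, edgeR). It went from 4.89, 4.76 and 3.90 CPM in set 1 to 7.99, 9.80 and 8.22 CPM in treated B6 mice, and from 6.18, 4.94 and 4.37 to 8.20, 8.23 and 8.74 CPM in mutants. No set 1 mouse reached 5 CPM, the filter of the deposited counts, so Apcdd1 was listed for B6 mice only through the treated ones. The filter thus favoured its rise there. In mutants the untreated values of 4.94 and 4.37 CPM were also below that limit. The transcription factor Jun (0.43 ± 0.07) and the Rac exchange factor Tiam1 (0.38 ± 0.07) also rose. The co-repressor Tle4 (-0.55 ± 0.11) and Tspan12 (-0.27 ± 0.06), a tetraspanin that aids Frizzled signalling, fell. In B6 mice 5 of 73 (6.85%, beside 8.46% of all genes) were called, led by Apcdd1 (0.95 ± 0.17) and Jun (0.53 ± 0.11) upward and Tspan12 (-0.45 ± 0.10) and Tle4 (-0.71 ± 0.17) downward, and in mutants 1 of 73 (1.37%, beside 2.37% of all genes), Tiam1 (0.42 ± 0.08).

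Between treated genotypes 1 of 72 of these genes (1.39%, beside 2.05% of all genes) was called. It was Usf1, which the study, by qPCR, reported with Dact2 as raised at D26 in B6 but not in Irf1-/- colons. Usf1 was thus a gene of known interest, and its call is not a find of an unselected list. Usf1, a transcription factor, had 52.1, 48.4 and 49.9 CPM in treated B6 mice and 30.1, 35.1 and 34.3 CPM in treated mutants (log2 FC -0.61 ± 0.09, adjusted p = 0.0147, edgeR). Untreated levels were 42.0, 44.5 and 36.9 CPM in set 1, 42.7, 40.8 and 42.1 CPM in set 2 and 35.6, 35.7 and 35.4 CPM in mutants. The mutants were thus below all B6 mice in both states, and before treatment the log2 FC was -0.23 ± 0.06 (adjusted p = 0.144). Before treatment 0 of 73 were called by edgeR's quasi-likelihood test or DESeq2, beside 1.25% and 2.53% of all genes. In the quasi-likelihood test 8 had an unadjusted p under 0.05, beside 10.4% of all genes. In the difference between the responses that test called 0 of 72, beside 0.0481% of all genes. There 15 had an unadjusted p under 0.05, beside 16.9% of all genes, and DESeq2 called 2, beside 3.22%. Usf1 differed between the responses by -0.39 ± 0.12 (adjusted p = 0.135).

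Some markers of other cells moved with treatment beside these results. Of all genes 17.9% were called over both genotypes (8.59% higher and 9.36% lower), 8.46% in B6 mice and 2.37% in mutants. Of 11 squamous markers 7 rose over both genotypes, 5 in B6 mice and 4 in mutants, among them Krt14 (1.79) and Krt5 (1.53). Of 7 leukocyte markers 5 rose over both genotypes, of 5 endothelial markers 4, and of 11 epithelial markers 3 rose and 2 fell. Of 14 fibroblast markers 2 rose and 0 fell (14.3%), beside 17.9% of all genes called and 8.59% higher. In mutants 12 of the 14 were positive (median log2 FC 0.27) and 0 were called, and in B6 mice 9 (0.13) and 1. In edgeR's quasi-likelihood test 6 (42.9%) had an unadjusted p under 0.05 in mutants, beside 18.6% of all genes. In B6 mice 3 (21.4%) had one, beside 29.5% of all genes. Over both genotypes the 9 smooth muscle markers had a median log2 FC of 0.00 and none with an unadjusted p under 0.05 in edgeR's quasi-likelihood test. Of 4 neuron and glia markers tested in B6 mice (3 of 7 were listed in every library, Elavl4, S100b, Sox10 and Gfap not) 2 fell, among them Snap25 (-0.60), and all 4 were negative. Their summed level was 34.5 to 43.1 CPM in set 1, 23.1 to 28.5 CPM in set 2 and 26.3 to 27.0 CPM in treated B6 mice, so treated mice lay below set 1 and within the range of set 2. In mutants it was 29.0 to 31.0 CPM before and 27.6 to 40.7 CPM after treatment, and 0 of 3 were called by edgeR's quasi-likelihood test (0 with an unadjusted p under 0.05), its exact test or DESeq2. Of 5 genes of distal colon position 4 were negative over both genotypes, with a median of -0.29, and 1 fell, Hoxd13 (-0.38). What part these shifts have in the levels of the members was not tested.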

How the data were processed

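RNA-seq of distal colon was analysed in 5 groups of 3 mice. Per the labels, rRNA-depleted, Kapa-stranded libraries were sequenced as 50 bp pairs, and the submitters' processing notes name TopHat2 2.0.9, Bowtie 1.0.0, featureCounts, edgeR and build mm9. The authors deposited raw read counts per gene in 3 tables, without genes under 5 CPM in at least 3 samples. Whether counting used strand is not given in the sources used here, so overlapping genes are uncertain. The authors' 36 CPM and log2 CPM columns and their test results (fold changes, p-values) were not used.

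Counts were fitted with edgeR 4.0.16 (R 4.3.3), as glmQLFit and glmQLFTest with TMM scaling and Benjamini-Hochberg adjustment over all genes of the tables compared. The fitting script was first tested on simulated data. The limit was an adjusted p of 0.05 in place of the study's (FC of at least 1.5 and adjusted p under 0.01). Replicates are separate mice, and their numbers do not pair them. Fits with 12 libraries gave the mean response and the difference between responses. Members and gene lists were chosen with earlier results of these data known. Named genes were a fixed set of stem cell, feedback and secreted genes, each called member, and otherwise the 4 with the smallest p. Lengths and GC content came from GENCODE M21, with values for 12783 of 12897 genes and all 44 members. Alternatives were RLE factors, DESeq2 1.42.0, edgeR's exact test, all 15 libraries in 1 fit, a replicate block, a filter of 10 CPM, GC correction (lowess, span 0.3), the other control sets and leaving out each library. The depth of 22266607 to 22869853 counts per library bounds counting error only.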

Additional observations from a re-analysis of the deposited data

How the results depend on the processing

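The members called in B6 mice (5) became 11 with DESeq2, 8 with edgeR's exact test, 12 with all 15 libraries in 1 fit, 9 with both control sets and 1 with GC correction. At the study's thresholds 0 were called, beside 6 of all 12643 genes. In mutants (3) and in the mean response (9) the study's thresholds gave 0, beside 32 of all 12692 and 162 of all 12483 genes, and GC correction gave 5 in the latter. Between treated genotypes (1) DESeq2 and the exact test gave 2, all 15 libraries 6, and GC correction and the study's thresholds 0, the latter beside 48 of all 12483 genes. For the difference between responses (0) DESeq2 gave 2, beside 3.22% of all genes. For untreated mutants against B6 mice (0) control set 1 gave 1. Between the control sets (0) DESeq2, the exact test and the filter of 10 CPM gave 1, the first 2 beside 4.69% and 5.26% of all genes. For the other settings and the fits without 1 library the share of all genes is not given. Those counts therefore do not set the members against all genes. Without 1 library the counts ranged from 0 to 7 in B6 mice, 0 to 2 in mutants, 6 to 9 in the mean response, 0 to 2 between treated genotypes, 0 to 1 between control sets, and were 0 for untreated genotypes and for the difference between responses. No called member reversed its sign under any alternative run. The causes were not tested.

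With a replicate block 0 members were called in B6 mice, 2 in mutants, 6 in the mean response and 0 between treated genotypes, and with GC correction and the block 0, 2, 5 and 0. The labels give the number only as a name, and same-numbered mice did not deviate together: the correlations were -0.13, -0.11 and -0.11 in B6 mice, -0.04, 0.03 and 0.25 in mutants, and -0.22, -0.15 and 0.18 between treated groups. Not every sample correlated best with its own number in any comparison. Depth was nearly equal across libraries, and 3 mice per group limit what small changes can pass.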
